A study of Rattus norvegicus with 108 samples.

Results

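The dorsal dentate gyrus (dorDG) cells that carry the annotation Mossy numbered 72 of 1289 cells (5.59%), and they are described here as the cells annotated Mossy. They were chosen by a single rule: the deposited cell type column of the dorDG table reads Mossy. The study asked how fluoxetine, a selective serotonin reuptake inhibitor, changes cell types and gene expression in this region, using droplet RNA sequencing with unique molecular identifiers (UMIs). All animals were male rats, called Charles River rats in the labels and Long-Evans rats of Charles River stock, bred at the authors' institute, in the study's methods, and were 2 months old at the start. The FT group received 18 mg/kg body weight of fluoxetine and the Sham group received water, for 6 weeks, and every replicate was a pool of punches from several animals. The dorDG data held 4 FT replicates (numbers 1, 2, 4 and 5) and 5 Sham replicates (numbers 1 to 5). Nothing in the labels ties a replicate to a litter or a day, so p-values measure the spread between these pools. FT contributed 49 of the 72 cells and Sham 23.

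Mossy cells are glutamatergic neurons of the hilus that send long-range excitatory axons to granule cells and to interneurons. Calretinin (Calb2) and the dopamine D2 receptor (Drd2) are taken here as markers of them. Whether dorsal mossy cells of rats express either gene was not tested. Capillaries of the same region are built from endothelial cells, which form the blood-brain barrier, and from pericytes, which share the endothelial basement membrane and depend on PDGF-B signalling through the receptor Pdgfrb. Arterioles carry smooth muscle cells, which contain contractile proteins such as the smooth muscle myosin Myh11.

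The label did not match the markers listed for it. Calb2, a calcium-binding protein, had 0 UMIs in all 72 cells annotated Mossy, which allows up to 4.17% of cells with a UMI. All dorDG cells held 76 Calb2 UMIs, and 47 of them lay in cells annotated ExcitNeuron, of which 9.09% held a Calb2 UMI. Drd2 also had 0 UMIs in the cells annotated Mossy and 2 in all of dorDG, too few to mark any type. The same held for Csf2rb, a cytokine receptor chain, with 0 UMIs in these cells and 1 in all. Nmb, a neuropeptide gene, was the fourth of 10 listed mossy markers at 0. The other 6 were Tm4sf1, Rgs12, Ap2s1, Grm8, Cnih3 and Ociad2. Their summed level with the 4 at 0 was 5.16 UMIs per 10000, against 3.13 in ExcitNeuron cells and 6.76 in Endothelial cells. All other cells together held 2.26, and these cells ranked 2 of 12 types. Of the 10 genes, 3 were above their level in all other cells and 0 were above every other type. Most of the summed level came from Tm4sf1, a membrane protein at 4.05 UMIs per 10000 here, 0.67 in all other cells and 5.03 in Endothelial cells. The metabotropic glutamate receptor Grm8 stood at 0.17 here and 0.43 in the other cells. Only 8 of the 72 cells held a UMI of Slc17a7 or Slc17a6, the vesicular glutamate transporters that define excitatory neurons. The name Mossy is therefore used below as the deposited label and not as a cell type.

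Genes of vascular mural cells led the cells annotated Mossy. Levels are UMIs per 10000 UMIs, pooled over cells, and since the annotation was made from the same expression values, the comparison with other types is a description without a test. Of 3747 genes with a UMI in at least 25% of the 72 cells, 150 were at least 4 times as high as in all other dorDG cells, 97 were at least 2 times as high as in every other annotated type, and 25 were at least 4 times as high as in every other type. Among the 20 genes with the highest ratio to all other cells, 4 were on the pericyte list (Vtn, Higd1b, Rgs5 and Kcnj8), 2 were on the smooth muscle list (Myl9 and Des), and 0 were on the mossy, pan-neuronal or endothelial lists. The next highest type was Endothelial for 12 of the 20, and 15 of the 20 were higher than in the other cells of the same replicate in all 8 replicates that held cells annotated Mossy.

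Vtn encodes vitronectin, an adhesive glycoprotein that brain pericytes secrete. It reached 7.89 UMIs per 10000 against 0.14 in all other cells and 0.62 in Endothelial cells, the next type. Among replicates with at least 5 of the cells, its level was 8.25, 3.55, 13.6 and 9.53 in FT replicates 1, 2, 4 and 5 and 7.13, 1.33 and 16.1 in Sham replicates 1, 2 and 4, so the groups overlapped and Sham replicate 2 was the lowest of all. Higd1b, a mitochondrial hypoxia-response family gene, stood at 6.20 against 0.11 and was found in 54 of the 72 cells. Rgs5, a regulator of G protein signalling long used as a pericyte marker, stood at 4.43 against 0.15. Kcnj8 and Abcc9 encode the pore and the regulatory subunit of the ATP-sensitive potassium channel of mural cells. The 2 genes stood at 1.91 and 1.72 UMIs per 10000, against 0.04 and 0.11 in all other cells. Pdgfrb, the receptor for PDGF-B, stood at 3.23 against 0.22, and 53 of the 72 cells held a Pdgfrb UMI. Its replicate levels were 1.93, 3.20, 5.01 and 3.78 in FT and 1.93, 0.76 and 5.44 in Sham, again with Sham replicate 2 lowest. Atp13a5, a transporting ATPase of pericytes, stood at 3.73 against 0.28.

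Of the 11 pericyte list genes measured, all 11 were above the level of all other cells and 10 were above every other type. Cspg4, the NG2 proteoglycan, was the exception at 1.44, below the 1.97 of OPCs, the precursor cells for which it is also a marker. The remaining members were low, with Anpep, an aminopeptidase, at 0.47 and the receptor Notch3 at 0.36, while the adhesion molecule Mcam stood at 2.97. Summed over the list, the cells annotated Mossy held 34.4 pericyte UMIs per 10000, and the other 11 types held between 1.08 and 3.64. Ndufa4l2 was not analysed here.

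The remaining leading genes belonged to several functional groups. Crip1, a LIM-domain protein of smooth muscle and other tissues, stood at 10.8 against 0.33, but its replicate levels spread from 0.25 in Sham replicate 4 to 30.7 in FT replicate 1. Cox4i2, an alternative subunit of cytochrome c oxidase, stood at 3.65 against 0.07, and its replicate levels ran from 0.95 to 5.69. The connexin Gja4 stood at 2.74 against 0.05, with BergGlia as the next type at 0.20. Slc6a20, a carrier of proline and related amino acids, stood at 3.01 against 0.09. Mgp, the matrix Gla protein, stood at 5.01 against 0.25, and Col18a1, a basement membrane collagen chain, at 3.18 against 0.21. Ifitm3 and Ifitm7, interferon-induced membrane proteins, stood at 7.43 and 3.29, and Endothelial was the next type for both. The other members of the 20 were the galectin Lgals1, the matricellular gene Cyr61, the G protein regulator Rgs4, the muscle-associated Mustn1, the aminopeptidase Enpep and the Notch target Heyl, with levels from 1.63 to 4.10. Ranked by the ratio to the next highest type instead, 8 of the first 10 genes were among these 20, and the other two were Foxs1, a forkhead factor at 0.87, and Gjc1, a connexin at 1.06.

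**Figure D1:**
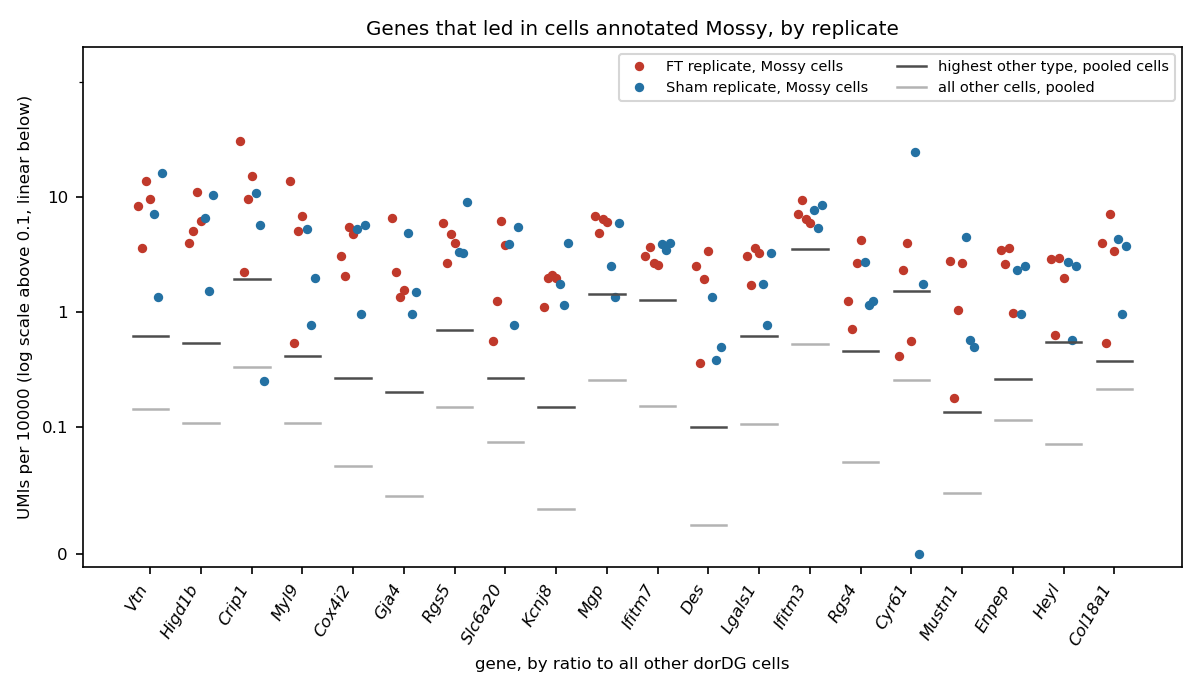
Level of the 20 leading genes in the cells annotated Mossy, in UMIs per 10000 on an axis that is logarithmic above 0.1 and linear below, with 1 point for each replicate that held at least 5 such cells (4 FT, 3 Sham) and bars for the highest other type and for all other cells. Vtn lay between 1.33 and 16.1 in the replicates, above the 0.62 of Endothelial cells, while Crip1, Cyr61 and Mgp had replicates below the next type.

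Smooth muscle UMIs were concentrated in few of the cells. At least 1 UMI of the list was found in 58 of the 72 cells and at least 3 in 38, and Myl9, a myosin regulatory light chain, was found in 43. Summed over the 9 list genes measured, the level was 19.5 UMIs per 10000, against 0 to 1.77 in the other types, and 8 of the 9 were above every type. Tagln, the actin-binding transgelin, stood at 6.79, but only 14 of the 72 cells held a Tagln UMI, and Myh11 stood at 2.69 from 16 cells. Replicate levels of Tagln were 18.3, 0.53, 5.01 and 15.7 in FT and 6.74, 0 and 0 in Sham. The desmin gene Des stood at 1.49, the kinase Mylk at 1.85, the tropomyosin Tpm2 at 1.19 and phospholamban (Pln) at 0.42. The calponin Cnn1 rested on 3 UMIs, and Lmod1, a leiomodin, was lower here than in all other cells, at 0.17 against 0.20. A set of 7 cells stood apart, with at least 50 smooth muscle UMIs each, and no other cell had more than 16. These 7 cells held 79.3% of the smooth muscle UMIs, including 310 of 320 Tagln and 117 of 127 Myh11 UMIs. In them the smooth muscle list reached 119 UMIs per 10000, with a pericyte level of 14.6. In the other 65 cells the smooth muscle level was 4.63 and the pericyte level 37.3. Of the 7 cells, 6 came from 3 FT replicates and 1 from Sham replicate 1. The boundary of 50 was set after the values were seen. Acta2 was not analysed here.

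Endothelial genes formed the other large component. Over the 10 genes measured the level was 48.7 UMIs per 10000, below the 82.9 of cells annotated Endothelial and far above the 2.45 to 3.85 of the remaining 10 types. All 10 members exceeded their level in all other cells. Flt1, a VEGF receptor, stood at 15.9 against 19.5 in Endothelial cells (81.5%), the glucose transporter Slc2a1 at 9.78 against 13.3 (73.8%), and Itm2a, a membrane protein, at 11.5 against 29.0 (39.7%). The efflux transporter Abcb1a stood at 2.76 and the adhesion molecule Pecam1 at 3.18. The tight junction gene Cldn5 was near 0 in both types, with 2 UMIs here, so it separated neither. Slco1a4 was not analysed here.

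The 72 cells spread between pericyte and endothelial profiles. The pericyte list had at least 1 UMI in 71 cells and at least 3 in 65, with a median of 22. More pericyte than endothelial UMIs were found in 38 cells and the reverse in 34, the lists holding 11 and 10 genes, and 8 cells lay between 40% and 60% pericyte. At 80% or more there were 28 cells, with a pericyte level of 97.3, an endothelial level of 11.6 and a median of 2547 UMIs per cell. At 20% or less there were 13 cells, with a pericyte level of 7.17, an endothelial level of 77.5 and a median of 7204 UMIs. Of these 13, 8 came from FT replicate 2, 2 from Sham replicate 1 and 3 from Sham replicate 2. The 31 cells between had a median of 7270 UMIs. At least 10 UMIs of both lists were found in 31 of the 72 cells, which had a median of 9009 UMIs against 3080 for the other 41. The same held for 4 of 180 Endothelial cells, a type with a median of 2945 UMIs, so the counts are not at equal depth. No doublet caller was run and the study's methods name none, so the part of droplets holding more than 1 cell was not tested.

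**Figure D2:**
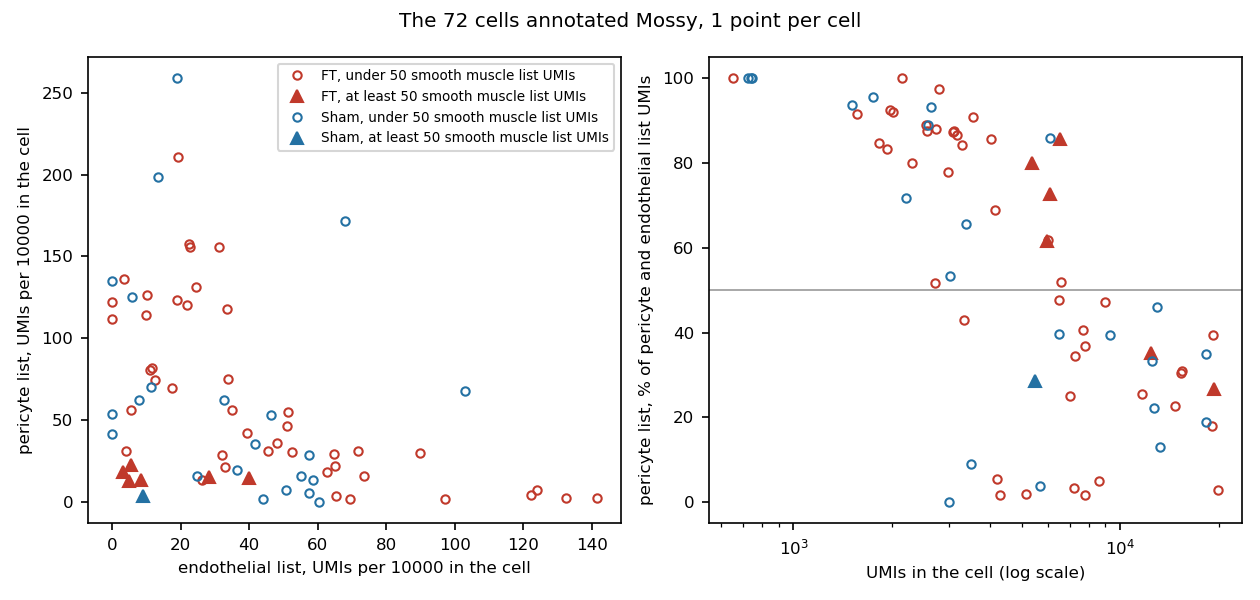
Pericyte list against endothelial list level (both in UMIs per 10000 of the cell) on the left, and pericyte UMIs as a percent of both lists against total UMIs (log scale) on the right, for each of the 72 cells annotated Mossy by group, with triangles for those with at least 50 smooth muscle UMIs. Of the 72 cells, 38 hold more pericyte UMIs and 34 more endothelial UMIs, and the 28 cells at 80% or more have a median of 2547 UMIs.

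Pericyte genes stayed far above, and neuronal genes near, the share in a type that should lack them when cells were compared at equal depth. After each cell was thinned to 1000 UMIs, which left out 4 of the 72 cells, Vtn was found in 51.5% of the cells annotated Mossy and in 0.962% of Microglia1 cells, a type that should lack it. Unthinned, the shares were 72.2% and 3.74%, at median depths of 4722.5 and 6669 UMIs. Pdgfrb was found in 36.8% against 0.962% at equal depth, and Higd1b in 44.1% against 0%. The astrocyte-lineage types AstroSub1 and BergGlia held Pdgfrb in 9.18% and 9.09% of cells, the highest of the other types. Flt1 was found in 44.1% of these cells, 68.6% of Endothelial cells and 5.77% of Microglia1 cells. The synaptic gene Snap25 was found in 7.35% of these cells, in 8.65% of Microglia1 cells and in 41.5% of ExcitNeuron cells, and Map2, a dendritic microtubule protein, in 5.88%, 7.69% and 20.8%. Unthinned, the shares of Snap25 were 36.1% here and 36.4% in Microglia1, and those of Map2 29.2% and 27.1%.

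Neuronal programs did not lead in these cells. The pan-neuronal list of 17 genes measured summed to 8.36 UMIs per 10000, rank 10 of 12 types, inside the 7.59 to 23.4 of non-neuronal types and below the 52.2 to 99.4 of the 3 neuronal types. By replicate it lay between 6.57 and 9.77 in FT and between 7.70 and 10.1 in Sham. Rbfox3, the neuronal nuclear antigen NeuN, had 4 UMIs, and Gria2, a glutamate receptor subunit, stood at 2.06 against 10.7 in all other cells. Synaptic vesicle genes summed to 13.7, with 12.01 to 22.6 in non-neuronal and 39.0 to 73.3 in neuronal types. Glutamate receptor genes summed to 13.1 and voltage-gated channel genes to 10.4, and the neuronal types held 77.7 to 149 and 35.2 to 67.6. The excitatory, granule and inhibitory lists stood at 1.61, 0.34 and 1.74. Pericyte UMIs exceeded pan-neuronal UMIs in 62 of the 72 cells and the reverse held in 8.

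**Figure D3:**
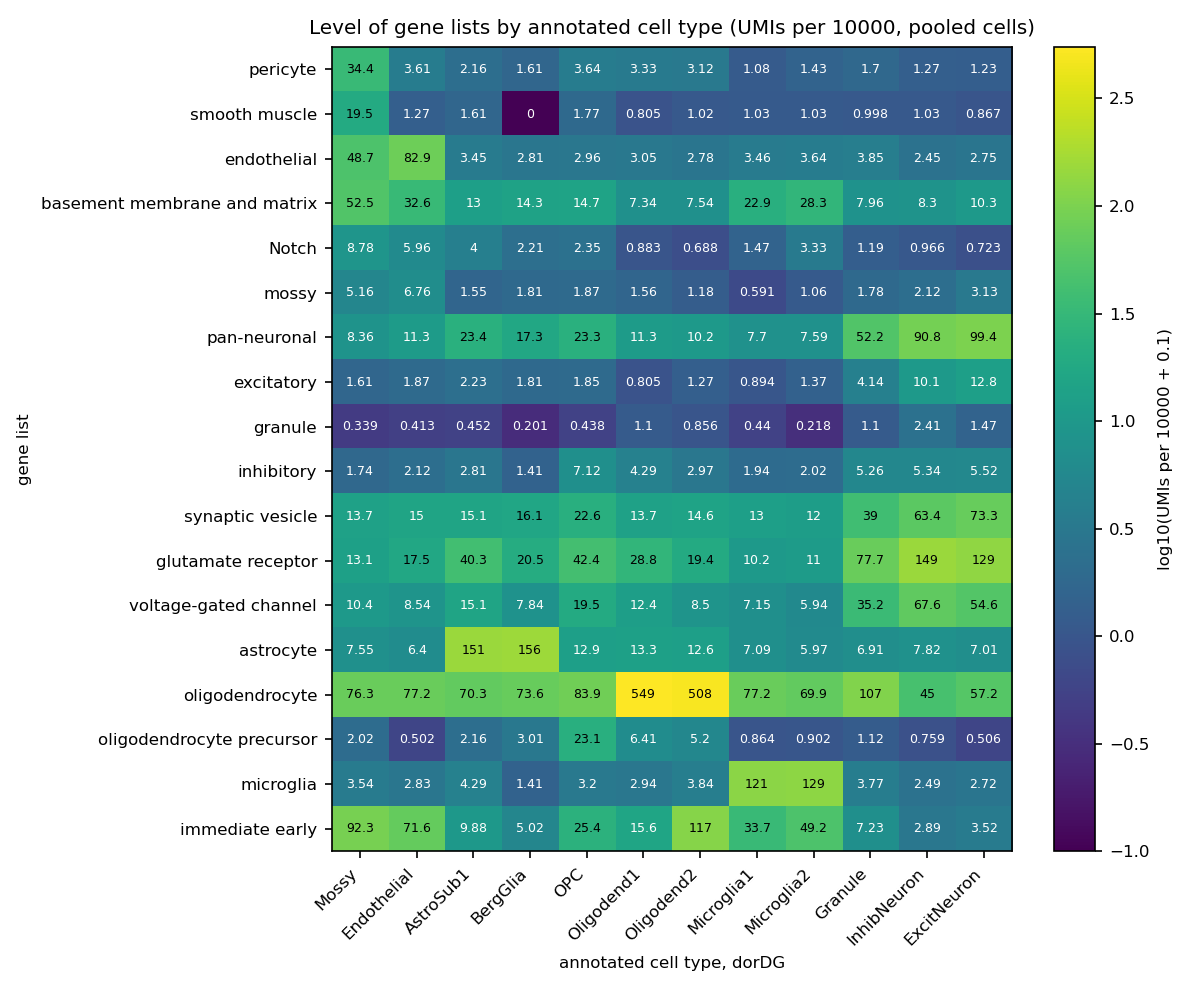
Summed level of gene lists (rows) in the cells annotated Mossy and the other 11 annotated dorDG types (columns), printed in UMIs per 10000 and coloured by its log10 after adding 0.1. The pericyte list reaches 34.4 in the cells annotated Mossy and at most 3.64 elsewhere, while their pan-neuronal level of 8.36 lies far below the 52.2 to 99.4 of the neuronal types.

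Matrix and signalling programs of the vessel wall were high as well. The basement membrane and matrix list of 15 genes summed to 52.5 UMIs per 10000, against 32.6 in Endothelial cells, and 11 members were above every type. The type IV collagen chains Col4a1 and Col4a2 stood at 5.60 and 7.30, against 2.15 and 2.39 in Endothelial cells. Sparc, a collagen-binding glycoprotein, stood at 10.4, below the 23.4 of Microglia2 cells. Notch pathway genes summed to 8.78 against 5.96 in Endothelial cells, with the targets Heyl at 1.89 and Hes1 at 2.76, the ligand Jag1 at 1.02 and the receptor Notch1 at 1.51. PDGF pathway genes summed to 4.43, second to the 6.13 of OPCs, whose total rests on Pdgfra at 5.15. In the cells annotated Mossy the PDGF level was 7.59 as a mean over cells and 7.40 as a mean of replicates. The latter includes Sham replicate 5, at 28.5 from 5 UMIs in 1 cell. OPCs were not weighted in these ways, so the order under them was not tested. The ligand Pdgfb had 6 UMIs in these cells and its level was 0.31 in Endothelial cells. The vasoactive list summed to 5.73, with the endothelin receptor Ednra at 1.61 and the cGMP-dependent kinase Prkg1 at 2.12, and its highest type was neuronal at 6.41.

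Immediate early genes summed to 92.3, second to the 117 of Oligodend2 cells and above the 71.6 of Endothelial cells. Fos and Fosb, subunits of the AP-1 factor, stood at 14.9 and 13.7. Serotonin genes did not set the cells apart: their sum was 5.39, inside the 2.30 to 9.63 of the other types, with the receptor Htr2a at 1.97 and the monoamine oxidase Maob at 1.21. Lists of other cell types were low in most cases. The oligodendrocyte list, led by the myelin gene Mbp, summed to 76.3 against 45.01 to 107 in types other than oligodendrocytes. The astrocyte and microglia lists summed to 7.55 and 3.54, the oligodendrocyte precursor list to 2.02 and the fibroblast list to 3.65. Of the 10 fibroblast genes 6 were above every type on few UMIs, among them the GABA transporter Slc6a13 with 24 UMIs in 16 cells and the growth factor Igf2 with 17 UMIs in 9 cells. The erythroid list of haemoglobin genes stood at 21.4 and reached 893 in Granule cells. The perivascular macrophage list stood at 0.11, the lymphocyte list at 0.02, and the ependymal and choroid plexus list at 3.82.

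Depth and quality bear on what follows. Total UMIs per dorDG replicate ran from 490584 to 1105869, and replicates 1 and 2 of each group had 2 droplet reactions while the others had 1. The cells annotated Mossy had a median of 4722.5 UMIs (654 to 19881) and 2190.5 genes (501 to 5648), and the other cells a median of 3932 UMIs. Cells under 2% ribosomal protein UMIs were 11.1% of the cells annotated Mossy and 42.1% of the others. Of 3 barcodes found in more than 1 reaction, 1 belonged to a cell annotated Mossy. The cells made up 33 of 396 cells (8.33%) in the first of paired reactions, 9 of 312 (2.88%) in the second and 30 of 581 (5.16%) in replicates with 1 reaction. Labels speak of nuclei and the methods of both cells and nuclei, and which reaction held which is not given in the sources used here.

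A larger share of FT cells carried the annotation. In FT replicates 1, 2, 4 and 5 it was 7.69% (11 of 143), 8.63% (17 of 197), 9.16% (12 of 131) and 9.09% (9 of 99). In Sham replicates 1 to 5 it was 3.91% (9 of 230), 3.62% (5 of 138), 0% (0 of 100, which allows up to 3%), 5.93% (8 of 135) and 0.862% (1 of 116). Every FT replicate lay above every Sham replicate. Means were 8.64% ± 0.676 (SD, n = 4) in FT and 2.86% ± 2.41 (SD, n = 5) in Sham, a difference of 5.78 percentage points with p = 0.0159 (two-sided exact permutation test), the smallest p this design allows. Adjusted over the 12 annotated types the p was 0.190, so the difference did not pass the correction. With replicate numbers 1, 2, 4 and 5 as blocks, the difference was 5.06 points with p = 0.125 (exact sign-flip test). That is the smallest p the block allows. The groups did not overlap for 1 of 12 types, which is 8.33%. The study had compared the same shares, so the values are not independent evidence of a direction. The ribosomal share moved with the groups among replicates of 1 reaction. Cells under 2% ribosomal protein UMIs were 72%, 31.9% and 45.7% of all cells in Sham replicates 3, 4 and 5, and 15.3% and 15.2% in FT replicates 4 and 5. In replicates of 2 reactions, such cells were 4.08% to 9.84% of the first reaction and 78.3% to 93.9% of the second. Whether this share reflects RNA quality or the kind of suspension was not tested. In Sham replicate 3, which held no cell annotated Mossy, the median ribosomal share was 0.667%. Among cells with at least 2% ribosomal protein UMIs the difference was 6.67 points, with an exact permutation p = 0.0159.

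Denominators and batches were varied, as shares of 1 whole move together. Inhibitory neurons had a mean share of 4.86% in FT and 17.1% in Sham, with overlapping groups. Among cells other than neurons the difference was 6.47 points (10.4% against 3.94%). Among Mossy and Endothelial cells together, the Mossy share was 41.4% ± 11.5 (SD, n = 4) in FT and 14.4% ± 10.5 (SD, n = 5) in Sham, p = 0.0159 in the same exact permutation test. The replicate values were 31.4%, 44.7%, 33.3% and 56.3% in FT and 25.7%, 19.2%, 0%, 20% and 7.14% in Sham. Endothelial cells alone had overlapping shares of 13.2% ± 5.26 and 14.7% ± 5.30 (SD, n = 4 and 5). The difference in the share annotated Mossy was 4.39 points within replicates of 2 reactions (exact permutation p = 0.333, 2 against 2) and 6.86 points within those of 1 reaction (exact permutation p = 0.2, 2 against 3), the smallest p that either allows. With only the pericyte-leading cells counted it was 3.49 points (4.84% against 1.35%), and without the 7 smooth muscle-rich cells 4.72 points, both with an exact permutation p of at most 0.0317. Exact binomial 95% intervals, which cover counting error only, ran from 3.90% to 13.3% in FT replicate 1 and from 2.59% to 11.3% in Sham replicate 4, the closest pair of replicates between the groups.

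**Figure D4:**
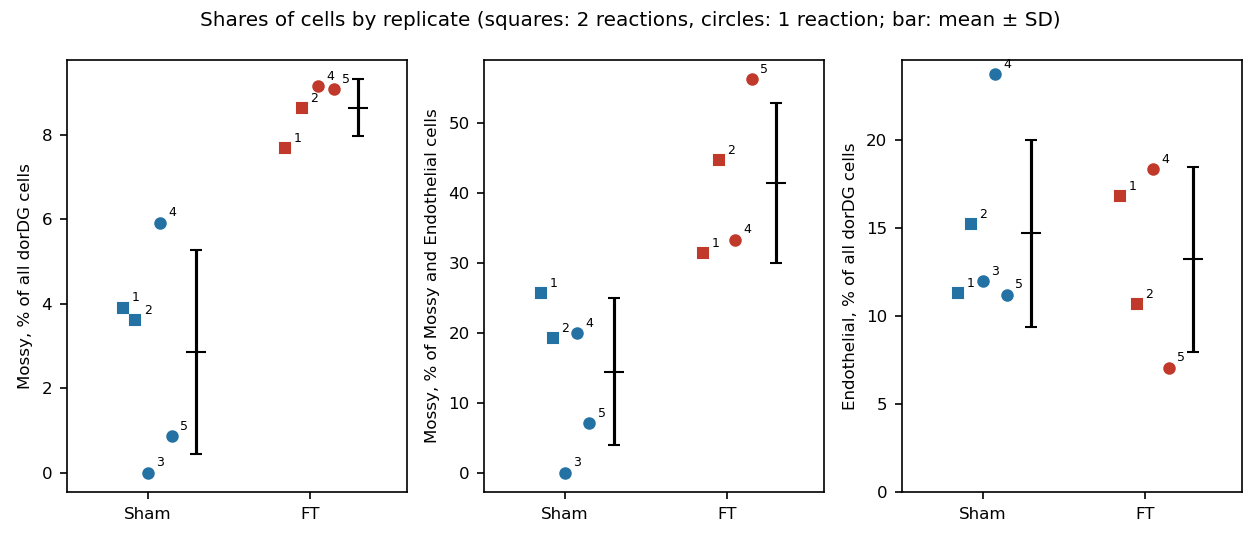
Percent of dorDG cells annotated Mossy, percent of Mossy among Mossy and Endothelial cells, and percent of dorDG cells annotated Endothelial, by numbered replicate (squares 2 reactions, circles 1 reaction), with bars for the group mean ± SD. The 4 FT replicates lie between 7.69% and 9.16% of all cells, and the 5 Sham replicates between 0% and 5.93%.

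Of 5 measures of depth and quality per cell, 0 passed the test between the groups after adjustment, and the spread between replicates was wider in Sham. The Sham values came from 9, 5, 8 and 1 cells in replicates 1, 2, 4 and 5, and the FT values from 11, 17, 12 and 9. The 1 cell of Sham replicate 5 was the lowest or highest value in each of the 5 measures. The part of cell number in the spread was not tested. Replicate medians of UMIs per cell were 5343 ± 1096 in FT and 5141 ± 4960 in Sham (SD, n = 4 each, exact permutation p = 0.971). The mitochondrial share was 6.89% ± 0.544 and 7.23% ± 1.54 (exact permutation p = 0.743). Ribosomal protein genes took 5.61% ± 0.623 of UMIs in FT and 4.38% ± 0.847 in Sham (SD, n = 4 each), with an exact permutation p = 0.0857 that became 0.429 after adjustment over 5 measures. Taken as a mean over cells the ribosomal difference was 1.38 points with an exact permutation p = 0.0286 before adjustment, past the threshold of 0.05. Oxidative phosphorylation genes took 1.39% ± 0.155 and 1.38% ± 0.680 (exact permutation p = 0.971). The nearness of these means rested on Sham replicate 5, a single cell at 2.34%. Without it the means were 1.39% and 1.06%, a difference of 0.330 points (exact permutation p = 0.114). With 4 replicates in each group the smallest p possible is 0.0286.

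No gene passed the main test between FT and Sham in these cells. UMIs were summed over the cells annotated Mossy in each replicate with at least 5 of them, which left 4 FT and 3 Sham sums of 40433 to 112630 UMIs, and 3861 genes were tested with edgeR's quasi-likelihood test. With the limits set at an adjusted p of 0.2 and a log2 fold change of 0.32 in either direction, the count called was 0 of 3861 (0%), and the smallest Benjamini-Hochberg adjusted p was 0.999. An unadjusted p under 0.05 was reached by 143 genes (3.7%), 61 of them higher in FT (1.58%) and 82 lower (2.12%). DESeq2 and limma also called 0, with 50 and 139 genes at an unadjusted p under 0.05. The count depended on the genes, the cells and the model. With no filter on low counts edgeR called 21 genes. It called 12 with replicates of at least 1 cell, which added the 1 cell of Sham replicate 5 (1755 UMIs). On the main genes and sums, the replicate number as a block gave 11, with a smallest Benjamini-Hochberg adjusted p of 0.00356 in edgeR. Pericyte-leading cells alone gave 9, on only 2 Sham sums. Tagln and Myh11 were called in each of these settings, both higher in FT. Their UMIs lay largely in the 7 smooth muscle-rich cells. Over all 3861 genes tested, whatever their p, groups did not overlap for 224. Among the 143 genes, they did not overlap for 30 higher and 43 lower, which are 0.777% and 1.11% of the 3861.

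The largest differences among those genes rested on few UMIs. Ncdn, the neuronal protein neurochondrin, had 4, 4, 11 and 6 UMIs in the FT replicates and 1, 1 and 0 in Sham, a log2 fold change of 2.40 ± 0.89 (SE). Cnpy2, Fosl2, Lrpap1 and Fam49b followed with log2 fold changes from 2.01 to 2.31. Fosl2 is an AP-1 subunit and Lrpap1 a chaperone of lipoprotein receptors. Pld2, a phospholipase, had 1, 4, 1 and 3 UMIs in FT and 6, 13 and 3 in Sham, a log2 fold change of -2.36 ± 0.61. Znrf3, a ubiquitin ligase that acts on Wnt receptors, stood at -1.96 with 8 UMIs in FT and 15 in Sham. Stk40, Rbpj.1 and the clock gene Arntl stood at -1.89, -1.88 and -1.81. Every one of these 10 had an adjusted p of 0.999 (edgeR, Benjamini-Hochberg).

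Pdgfrb and Vtn, which the study names for these cells, did not pass the test. Pdgfrb had means of 3.48 ± 1.28 UMIs per 10000 in FT and 2.71 ± 2.44 in Sham (SD, n = 4 and 3), a log2 fold change of 0.43 ± 0.52 (SE). Vtn had 8.73 ± 4.13 and 8.18 ± 7.43, a log2 fold change of 0.14 ± 0.55. The adjusted p was 0.999 for both in the edgeR fit. Single Sham replicates set these values. Without Sham replicate 4 the log2 fold change of Pdgfrb was 1.32 ± 0.56 and that of Vtn 0.996 ± 0.60 (edgeR adjusted p = 0.954 for both), and without Sham replicate 2 they were -0.00228 and -0.36.

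By group of genes, no list member was called in the main test. List medians are to be read beside the median log2 fold change of -0.00161 over all 3861 genes. Counts at an unadjusted p under 0.05 are to be read beside the 1.58% of all genes that were higher and the 2.12% that were lower at that level. Of 9 pericyte genes tested, 1 (Mcam) was higher in FT at an unadjusted p under 0.05 and 0 lower, with a list median of -0.21. List levels by replicate were 32.6, 25.5, 49.9 and 34.9 in FT and 30.05, 15.7 and 61.1 in Sham, so both ends of the range were Sham. Of 6 smooth muscle genes, all 6 had higher estimates in FT, 1 (Myh11) with an unadjusted p under 0.05, and the median was 1.31. Their list level was 48.1, 2.84, 17.0 and 40.8 in FT and 18.5, 2.28 and 5.19 in Sham. The 3 high FT replicates and Sham replicate 1, at 18.5, are those that hold the smooth muscle-rich cells. Without these cells edgeR also called 0 genes, of 3903 tested. Their part in the list levels was not tested. Of 8 endothelial genes, Flt1 was higher (log2 fold change 0.88 ± 0.35) and Pecam1 lower (-1.04 ± 0.48) at an unadjusted p under 0.05, and the median was -0.30. Of 14 matrix genes 1 (Mgp) was higher at that level, of 6 Notch genes 1 (Hes1) and of 11 immediate early genes 1 (Zfp36), an mRNA decay factor whose level lay between 10.3 and 12.6 in FT and between 3.604 and 10.1 in Sham. Hes1 had 7.28 in FT replicate 2 and 0.55 to 4.13 in the other FT replicates.

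Housekeeping and neighbouring-cell genes showed no called change either. Of 85 ribosomal protein genes tested, 69 had higher estimates in FT, with a median of 0.23, and 2 (Rpl4 and Rps15a) were higher at an unadjusted p under 0.05, where 1.58% of all genes were. Of 66 oxidative phosphorylation genes, 55 had higher estimates, with a median of 0.30 and 2 at that level (Ndufb11 and Ndufv2). Of 13 mitochondrially encoded genes, 3 had higher estimates and the median was -0.17. All 9 oligodendrocyte genes had lower estimates, median -1.03, with Mog and Mobp at an unadjusted p under 0.05, and the list level was 48.1, 39.6, 69.8 and 97.5 in FT and 98.2, 186 and 33.4 in Sham. Of 6 pan-neuronal genes 1 (Gria2) was lower at that level, and of 9 glutamate receptor genes 2 were lower (Gria1 and Gria2), with medians of -0.18 and -0.56. The part of RNA from neighbouring cells in these values was not tested.

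**Figure D5:**
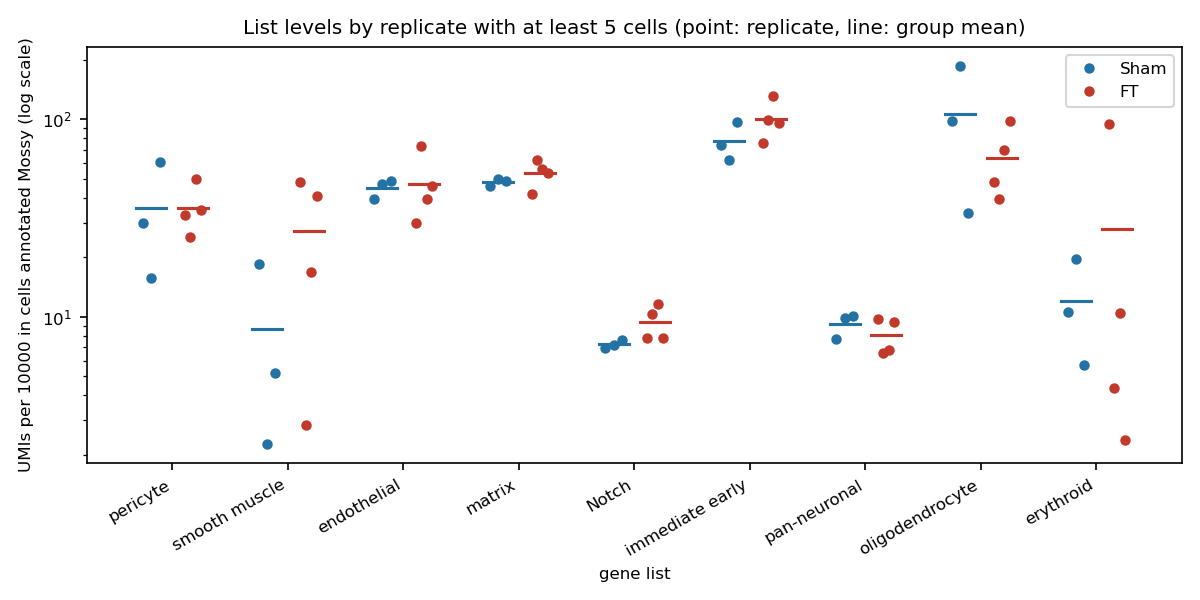
Summed level of gene lists in the cells annotated Mossy, in UMIs per 10000 on a log axis, with lines for group means and 1 point for each replicate with at least 5 such cells (4 FT, 3 Sham). The smooth muscle list spans 2.84 to 48.1 in FT and 2.28 to 18.5 in Sham, and the pericyte list spans 25.5 to 49.9 and 15.7 to 61.1.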

How the data were processed

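Droplet libraries (10x Chromium 3' kit v2) came from dorDG punches. According to the labels and the submitters' processing notes, the authors aligned and counted reads with Cell Ranger 2.1.0, used build rn5 and annotated cells with Seurat 3. The deposited values are raw UMI counts per gene and cell, with the authors' annotation. The 52 dorsal libraries formed 13 reactions of 4 libraries each. Reactions were summed within the label's replicate number, and precision is limited by the 40433 to 112630 UMIs per tested sum. FT and Sham were compared with edgeR 4.0.16 (quasi-likelihood, TMM, R 4.3.3) on genes averaging 0.5 UMIs per 10000 or more, with DESeq2 1.42.0 and limma 3.58.1 as alternatives. Shares were compared with an exact permutation test written for the purpose in Python (numpy 2.4.6). Binomial intervals used scipy 1.17.1. Scripts were tested on simulated data. The cells, lists and tests were chosen with earlier results of these data known. Named were mossy, pericyte and smooth muscle list members, the highest 2 of other lists, the 20 leading genes (0.1 added to both levels), the first 10 by next type, 5 extremes in each direction and genes of the study, of which 1 is not reported here. Further list members were named after their values were seen. Cell filters were those of the deposit.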

Additional observations from a re-analysis of the deposited data

Results flagged for a closer look

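In 52 groups of 4 or 5 replicates, the gap of 1 replicate to the rest was compared with the group's range by Dixon's test at the 95% level, which chance passes in about 5% of groups, and 6 replicates stood apart. Median UMIs per cell annotated Mossy were 12504 in Sham replicate 2, against 1755 to 3482 in the other Sham replicates. The mitochondrial share was 7.70% in FT replicate 1 and 6.57% to 6.65% in the other FT replicates. The ependymal and choroid plexus list, which includes the thyroxine carrier Ttr, stood at 21.8 UMIs per 10000 in FT replicate 4 and at 0 to 0.84 in the others, and 148 UMIs of it were Ttr. The erythroid list of haemoglobin genes stood at 94.6 in FT replicate 1, against 2.38 to 10.5. The lymphocyte list stood at 0.0888 in FT replicate 2, from 1 UMI in 17 cells, and at 0 in the other 3, so a single UMI set this flag. Znrf3, the ubiquitin ligase, stood at 0.18 in FT replicate 2 and at 0.28 to 0.29 in the others, each from 2 UMIs.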

How the results depend on the processing

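The share annotated Mossy kept its direction in every alternative run, at 5.06 to 6.54 points with 1 replicate left out, and the share among Mossy and Endothelial cells at 22.1 to 30.4. With the replicate block (sign flips within numbers 1, 2, 4 and 5) the differences were 5.06 and 23.4 points, both p = 0.125, the smallest that exact permutation allows there. The numbers were not used as pairs in the main tests, and whether they pair the samples was not settled. Correlations of deviations were 0.0869, 0.259 and 0.213 for numbers 1, 2 and 4, all positive. Each of the 3 Sham sums correlated best with its own number. The study's methods mention parallel processing of matching Sham and FT samples in the passage on frozen tissue for the bulk assays. Genes called, 0 as reported, numbered 21 with no filter on low counts, 12 with replicates of at least 1 cell, 11 with the replicate block in edgeR, and 9 with pericyte-leading cells only, an alternative added after the data were seen. Called genes included Hbb-b1 with 121 of 125 FT UMIs in replicate 1, Myh11 with 60 of 120 in replicate 5 and Hes1 with 82 of 121 in replicate 2. Pld2 had -2.65 (edgeR adjusted p = 0.110) under the block. Genes at an unadjusted p under 0.05 numbered 50 by DESeq2, 556 with no filter, 67 at a mean of at least 1 UMI per 10000 and 252 in pericyte-leading cells, against 143. Leaving out 1 replicate moved the FT minus Sham difference from -927 to 2656 for UMIs per cell, -328 to 725 for genes per cell, -0.897 to 0.327 points for mitochondrial share, 0.933 to 1.56 for ribosomal and -0.190 to 0.330 for oxidative phosphorylation share. The last was -0.0935 in cells with at least 2% ribosomal UMIs and -0.0298 without second reactions. As a mean over cells the ribosomal difference was 1.38 points (exact permutation p = 0.0286). In cells with at least 2% ribosomal UMIs the log2 fold changes of Pdgfrb and Vtn were -0.062 and -0.39. Leaving out 1 replicate gave Vtn -0.36 (without Sham replicate 2) to 0.996 and -0.14 without FT replicate 4, and Pdgfrb -0.00228 (without Sham replicate 2) to 1.32. List levels as means over cells were 11.2 for pan-neuronal, 2.94 for oligodendrocyte precursor, 60.2 for pericyte, 7.59 for PDGF, 7.71 for vasoactive, 17.1 for glutamate receptor and 12.9 for voltage-gated channel genes, and as means of replicates 7.40 for PDGF and 17.0 for glutamate receptor genes. The causes were not tested.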

Other observations

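Genes of the nitric oxide response stood high in the cells annotated Mossy. Gucy1a3 and Gucy1b3, the subunits of soluble guanylate cyclase, stood at 0.93 and 1.29 UMIs per 10000 against 0.05 and 0.25 in all other cells, with a UMI in 28 and 35 of the 72 cells. Genes of microglia and oligodendrocytes were low beside the other cells. The chemokine Ccl3 stood at 2.14 against 28.1, its relative Ccl4 at 2.29 against 20.3 and the lysosomal protease Ctss at 2.04 against 17.9. The iron carrier gene Tf stood at 2.06 against 16.9 and the carbonic anhydrase Car2 at 0.89 against 6.96. These genes were chosen after their values were seen, and the comparison is a description without a test.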
